A study of Homo sapiens with 9 samples.

Results

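Of 61155 gene symbols counted in 9 RNA-seq libraries, 32 were silent in at least 1 of 3 groups of cells and active in another. Silent means here a group mean under 0.2 CPM (the count of a gene per 1000000 counts of its library), and active a group mean of at least 2 CPM. These limits chose the members, all 3 group means entered the choice and GLUL was left out in advance, so the levels below are a description without a test. By the same measure 12081 genes were active in at least 1 group. The name "silent in one group only" held for 25 of the 32, and the other 7 were silent in 2 of the groups.

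The cells were MDA-MB-231, an established human line from a triple-negative breast cancer. The WT group holds reference cells that carry intact FBXL12 and received a scrambled control guide RNA, and KO1 and KO2 are 2 clones with FBXL12 knocked out, each sequenced as 3 libraries of total RNA. Each knockout group is 1 clone, so clone and genotype cannot be told apart within it, and the labels do not say whether the libraries of a group came from separate cultures. FBXL12, the substrate-binding part of a ubiquitin ligase, was at 22.3 ± 0.826 CPM in WT, 9.61 ± 0.202 in KO1 and 5.95 ± 0.535 in KO2 (SD, n = 3), so its mRNA was still counted in both clones. Totals ran from 52427841 to 97243363 counts per library, so that 3 counts correspond to 0.0309 to 0.0572 CPM. VIM, CD44 and AXL, markers of the mesenchymal state of this line, had means of 1034 to 3337 CPM over the groups, whereas the basal keratins KRT5, KRT14, KRT17, KRT6A and KRT6B that define basal epithelium were each under 0.2 CPM in all groups.

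In a differentiated cell tissue-restricted genes are commonly kept off by methylation of CpG-rich promoters, by Polycomb complexes or by methylation of histone H3 at lysine 9, and such states are passed on through cell division. Tumour lines often lose part of this restraint, and cancer/testis antigen genes, many of them on the X chromosome, are the best-known genes that are then read outside the germ line. Neither DNA methylation nor chromatin was measured in these cells. In bulk RNA a lower level can come from fewer cells that express a gene or from less RNA per cell, and these cannot be told apart.

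The silent group was most often KO1 and the active group most often KO2. KO1 was silent for 21 members, KO2 for 10 and WT for 8. KO2 was active for 21 members, KO1 for 9 and WT for 6, and 20 members were active in KO2 alone, 6 in KO1 alone and 2 in WT alone. The largest pattern held 14 genes that were silent in KO1, active in KO2 and between the limits in WT. A further 5 were silent in both WT and KO1 and active in KO2, 4 were active in KO1 with WT between and KO2 silent, and 3 were active in WT and KO1 and silent in KO2. The other 6 members each had a pattern of their own.

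**Figure D1:**
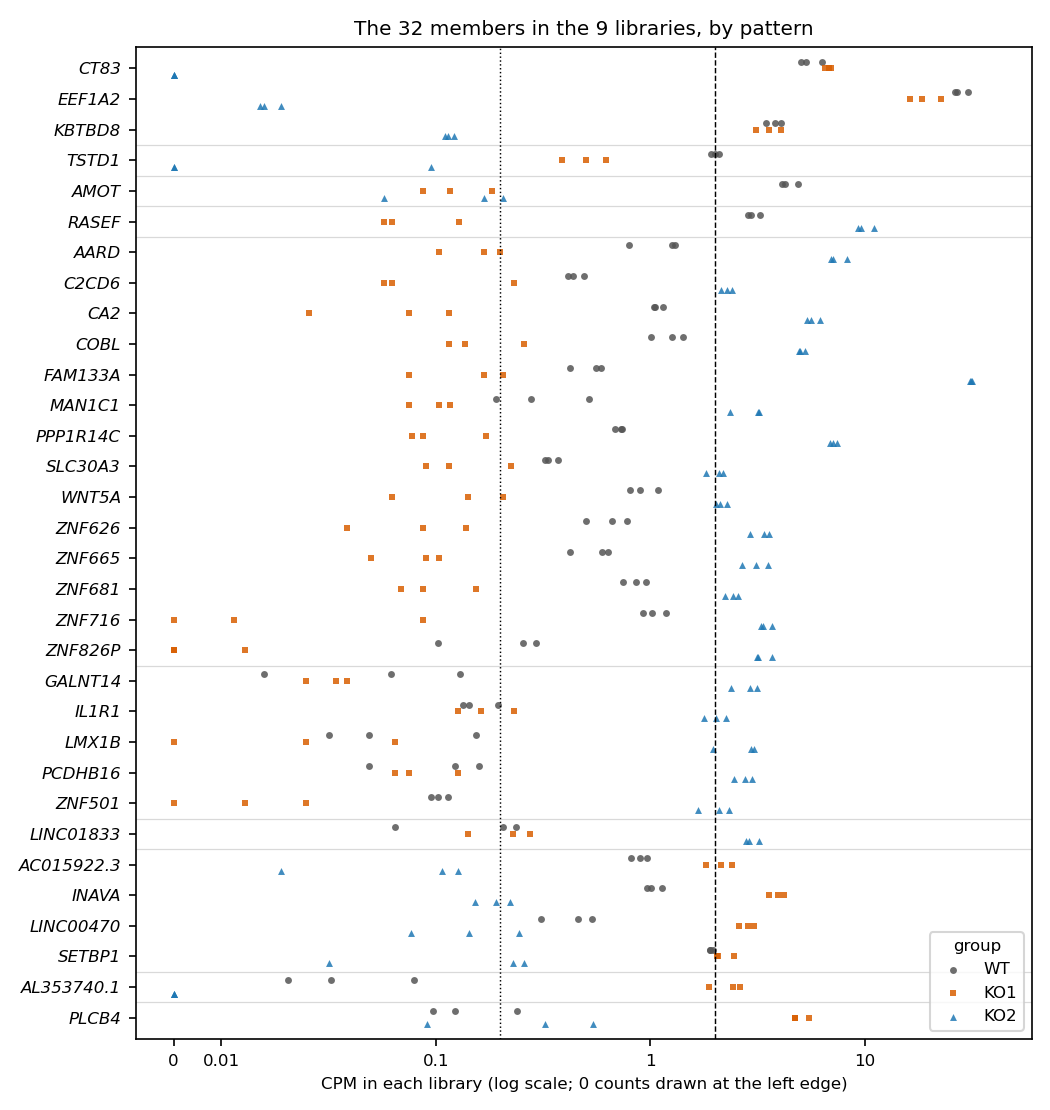
Level in CPM of the 32 members in each of the 9 libraries on a log axis, 1 point per library (circles WT, squares KO1, triangles KO2; 0 counts at the left edge), with the dotted line at 0.2 CPM and the dashed line at 2 CPM. Rows are grouped by pattern, and in the block of 14 genes from AARD to ZNF826P the KO1 squares lie at the left, the KO2 triangles at the right and the WT circles between them.

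The promoter sequences below stand for 4 of the ways in which a member was silent: in KO2 (CT83), in KO1 (RASEF), in both clones (AMOT) and in WT with KO1 (LMX1B). Each is read 5′ to 3′ on the strand of the gene from the RefSeq promoter table (GRCh38.p14), covers up to 250 bases before the start and stops before any base that GENCODE 29 counts as transcribed. Capitals mark CG, the pair of bases at which DNA is methylated.
CT83, chrX:116463004-116463226, minus strand, 223 bases: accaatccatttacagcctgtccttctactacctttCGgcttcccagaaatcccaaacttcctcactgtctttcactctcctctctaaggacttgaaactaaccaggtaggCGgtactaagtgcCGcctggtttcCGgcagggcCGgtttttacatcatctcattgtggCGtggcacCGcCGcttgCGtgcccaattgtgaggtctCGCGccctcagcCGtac
RASEF, chr9:83063178-83063392, minus strand, 215 bases: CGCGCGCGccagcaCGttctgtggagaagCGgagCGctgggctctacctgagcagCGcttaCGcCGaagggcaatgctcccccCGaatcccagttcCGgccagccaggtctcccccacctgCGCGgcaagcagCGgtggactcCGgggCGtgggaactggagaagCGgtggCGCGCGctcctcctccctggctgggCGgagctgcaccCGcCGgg
AMOT, chrX:112840832-112841081, minus strand, 250 bases: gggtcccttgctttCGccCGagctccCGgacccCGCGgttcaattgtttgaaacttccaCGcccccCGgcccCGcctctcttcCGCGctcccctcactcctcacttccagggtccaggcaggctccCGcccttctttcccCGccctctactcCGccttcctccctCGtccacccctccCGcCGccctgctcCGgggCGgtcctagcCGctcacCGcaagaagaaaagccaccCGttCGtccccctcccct
LMX1B, chr9:126613678-126613927, plus strand, 250 bases: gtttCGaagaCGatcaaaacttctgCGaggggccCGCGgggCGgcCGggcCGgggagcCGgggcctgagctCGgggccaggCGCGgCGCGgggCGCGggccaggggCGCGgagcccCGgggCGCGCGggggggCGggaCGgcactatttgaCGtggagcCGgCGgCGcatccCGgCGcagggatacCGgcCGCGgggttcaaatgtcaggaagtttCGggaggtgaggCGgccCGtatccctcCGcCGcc
The 4 stretches hold 12, 24, 22 and 38 CG pairs in this order. The RefSeq start of LMX1B lies 515 bases from the GENCODE start, so that stretch is not directly before the GENCODE gene. A promoter entry was matched for 20 of the 32 members, which is 62.5% and under the 80% needed to describe a set by such a property, so CpG content was not compared over the members. No entry was matched for EEF1A2, KBTBD8, AC015922.3, LINC00470, AARD, C2CD6, CA2, COBL, ZNF665, ZNF826P, PLCB4 and AL353740.1.

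EEF1A2, CT83 and KBTBD8 were active in WT and KO1 and silent in KO2. EEF1A2 encodes the form of translation elongation factor eEF1A that is normally limited to neurons and muscle. Its level was 26.3, 30.3 and 26.9 CPM in the WT libraries, 22.5, 16.3 and 18.5 CPM in KO1 and 0.0191, 0.0152 and 0.0158 CPM in KO2. Each KO2 library held 1 count of EEF1A2 against 1301 to 2559 counts in the libraries of the other groups. The ratio of the pooled WT level to the pooled KO2 level was 1667 (95% exact interval 570 to 8086, for counting error only). Its position is chromosome 20, 63488012 to 63499322, minus strand (GENCODE 29, GRCh38). EEF1A1, the form that most cells use and a close copy in coding sequence, stood at 13796 ± 736 CPM in WT, 11882 ± 484 in KO1 and 13791 ± 152 in KO2 (SD, n = 3), so the loss in KO2 was seen for EEF1A2 alone of this pair.

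CT83, a cancer/testis antigen gene, was at 6.31, 5.33 and 5.03 CPM in WT and at 6.96, 6.82 and 6.52 CPM in KO1, and not 1 read of it was counted in KO2. All 3 KO1 libraries lay above the WT libraries. Set against a floor of 3 counts over the group, the KO1 level was at least 408-fold higher than that of KO2. CT83 has 0.548 kb of exon, and per kb it reached 12.3 CPM in KO1, the highest of the 32. Its position is chromosome X, 116461682 to 116463003, and the stretch printed above lies just before its start. KBTBD8, which encodes an adaptor of a CUL3 ubiquitin ligase, was at 4.06, 3.47 and 3.80 CPM in WT, 3.10, 4.07 and 3.56 CPM in KO1 and 0.114, 0.122 and 0.111 CPM in KO2. The WT and KO1 libraries of KBTBD8 overlapped, and its WT mean was 32.6 times its KO2 mean.

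RASEF, AMOT and TSTD1 were the other members active in WT. RASEF, which encodes a Rab GTPase with calcium-binding EF hands, was at 2.93, 2.85 and 3.23 CPM in WT, 0.129, 0.0625 and 0.0574 CPM in KO1 and 9.56, 9.28 and 11 CPM in KO2. The 3 groups were separate, and RASEF was the only member active in both WT and KO2; its KO2 mean was 120 times its KO1 mean. Its position is chromosome 9, 82979585 to 83063177, minus strand. AMOT encodes angiomotin, a junction protein that binds the Hippo pathway effector YAP. It was the only member active in WT and silent in both clones, at 4.26, 4.12 and 4.87 CPM in WT, 0.116, 0.0875 and 0.184 CPM in KO1 and 0.0572, 0.168 and 0.206 CPM in KO2. The clones overlapped each other, and 1 KO2 library lay just above the limit of 0.2. Its relatives AMOTL1 (117 ± 4.09, 138 ± 9.24 and 107 ± 1.01 CPM in WT, KO1 and KO2) and AMOTL2 (187 ± 5.64, 202 ± 14.3 and 172 ± 2.45 CPM) were counted in all groups. TSTD1, which encodes a small protein with a sulfurtransferase domain, was highest in WT at 2.002 ± 0.0873 CPM, lower in KO1 at 0.503 ± 0.116 CPM and lowest in KO2 at 0.0317 ± 0.0549 CPM, and 2 of the KO2 libraries had 0 counts.

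The 14 genes that were silent in KO1 and active in KO2 had a median level of 0.684 CPM in WT (range 0.216 to 1.23), 0.108 CPM in KO1 and 3.31 CPM in KO2. WT therefore stood at a median of 18.3% of the KO2 level, and at 1.67% to 43.4% over the 14 genes. For each of them the WT libraries lay between those of the clones and overlapped neither. The pattern itself places the WT mean between the clone means, and the share of all genes with such a separation was not taken. FAM133A, an X-linked gene, was at 0.586, 0.421 and 0.557 CPM in WT, 0.167, 0.075 and 0.207 CPM in KO1 and 31.5, 31.3 and 30.8 CPM in KO2. Its KO2 mean was 208 times its KO1 mean, and the gene lies on the plus strand of the X chromosome at 93674013 to 93712274. Its autosomal relative FAM133B was at 12.4 ± 1.84, 13.1 ± 0.875 and 9.82 ± 0.149 CPM in WT, KO1 and KO2, without a matching step.

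Among the 14 was CA2, the cytosolic carbonic anhydrase that interconverts carbon dioxide and bicarbonate. It was at 1.14, 1.04 and 1.05 CPM in WT, 0.0258, 0.075 and 0.115 CPM in KO1 and 6.14, 5.38 and 5.61 CPM in KO2. Of its relatives CA13, another cytosolic form, had the same order at 14.04 ± 0.472, 12.1 ± 0.915 and 17.6 ± 1.37 CPM, and CA12, a membrane-bound form, the opposite order of the clones at 37.2 ± 0.717, 54.7 ± 3.53 and 25.1 ± 1.5 CPM. PPP1R14C, an inhibitor of protein phosphatase 1, was at 0.718 ± 0.0322 CPM in WT, 0.112 ± 0.0521 in KO1 and 7.11 ± 0.261 in KO2 (SD, n = 3). AARD was at 1.12 ± 0.285, 0.157 ± 0.0491 and 7.42 ± 0.745 CPM, and COBL, which encodes an actin nucleator, at 1.23 ± 0.211, 0.170 ± 0.0767 and 5.05 ± 0.184 CPM. The KO2 means of these 4 genes lay 29.7 to 79.5 times above their KO1 means.

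Lower down in the same pattern were WNT5A, MAN1C1, C2CD6 and SLC30A3. WNT5A, a ligand that signals through receptors such as ROR2 and ROR1 rather than through beta-catenin, was at 0.802, 0.892 and 1.08 CPM in WT, 0.142, 0.0625 and 0.207 CPM in KO1 and 2.12, 2.27 and 2.01 CPM in KO2. Its paralog WNT5B was at 13.3 ± 0.494, 15.8 ± 0.926 and 15 ± 0.675 CPM, ROR1 at 25 ± 1.86, 24.8 ± 1.43 and 30.0 ± 0.574 CPM, and ROR2 under 0.05 CPM in every group. MAN1C1, which encodes a Golgi mannosidase that trims N-glycans, was at 0.329 ± 0.170 CPM in WT, 0.0981 ± 0.0210 in KO1 and 2.91 ± 0.477 in KO2. C2CD6, known from sperm, was at 0.447 ± 0.0418, 0.117 ± 0.0993 and 2.26 ± 0.135 CPM, and SLC30A3, which loads zinc into synaptic vesicles, at 0.343 ± 0.0242, 0.143 ± 0.0717 and 2.03 ± 0.184 CPM.

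Zinc finger genes were the commonest family. Symbols that begin with ZNF made up 6 of the 32 members, or 18.8%, against 3.27% of the 11930 active genes that matched 1 GENCODE gene, and 5 of them share the 14-gene pattern; no test was made of these shares. ZNF716, on chromosome 7, was at 1.02, 0.924 and 1.18 CPM in WT, 0, 0.0875 and 0.0115 CPM in KO1 and 3.28, 3.34 and 3.69 CPM in KO2. ZNF626, ZNF681 and ZNF665 on chromosome 19 were at 0.649, 0.853 and 0.551 CPM in WT, 0.0880, 0.104 and 0.0812 CPM in KO1 and 3.29, 2.41 and 3.10 CPM in KO2. The pseudogene ZNF826P had 1 count in all KO1 libraries together and 600 in KO2, a pooled ratio of 811 (95% exact interval 145 to 32069). ZNF501, on chromosome 3, was silent in WT as well, at 0.104 CPM, and reached 2.02 ± 0.332 CPM in KO2 from 3 counts in KO1, a pooled ratio of 164 (interval 55.8 to 801). These genes encode, or derive from, DNA-binding proteins of the C2H2 type, many of which recruit silencing complexes to repeats. Members of the chromosome 19 clusters are near copies of each other and the treatment of shared reads in the counting is not known from the sources used here, so their single values are uncertain. ZNF626 and ZNF826P are 195 kb apart and were the nearest pair of members, and every other pair on a chromosome was further apart. Over the 469 tested ZNF genes that are not members the median log2 difference was 0.06 for KO2 minus KO1 and 55.9% lay above 0, and over the 222 of them on chromosome 19 it was 0.20 and 68.0% (both sets chosen after values were seen), against a median of 0.0075 and 50.8% over all tested genes.

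The other genes with KO2 as the active group were silent, or nearly so, in both WT and KO1. GALNT14, an enzyme that starts O-linked glycan chains, was at 0.0617, 0.130 and 0.0159 CPM in WT, 0.0386, 0.0250 and 0.0344 CPM in KO1 and 2.38, 3.15 and 2.92 CPM in KO2. The WT and KO1 libraries overlapped and KO2 lay 86.2-fold above KO1. Of the related enzymes, GALNT12 showed the same order at 0.0263 CPM in WT, 0 in KO1 and 1.11 ± 0.192 in KO2, below the active limit. GALNT10 was also lowest in KO1 at 174 ± 5.80, 62.9 ± 3.40 and 191 ± 6.4 CPM. GALNT1, GALNT2 and GALNT3 were above 20 CPM in all groups and ran opposite to GALNT14 between the clones. Their log2 differences for KO2 minus KO1 were -0.73, -0.26 and -0.34 (adjusted p = 7.0e-09, 0.0029 and 0.00031 in edgeR's test). GALNT6 and GALNT11 were likewise lower in KO2 than in KO1, and GALNT5 and GALNT18 higher, so the family did not move as a whole with GALNT14. LMX1B, a homeodomain transcription factor of limb, kidney and midbrain development, was at 0.0782 ± 0.0664, 0.0298 ± 0.0325 and 2.65 ± 0.594 CPM in WT, KO1 and KO2. PCDHB16, a clustered protocadherin of the neuronal surface, was at 0.110 ± 0.0564, 0.0886 ± 0.0331 and 2.72 ± 0.267 CPM. The genes of its cluster are near copies, so reads may be split among them. Of these, PCDHB14 (0.615, 0.563 and 1.83 CPM) and PCDHB9 (0.166, 0.151 and 0.725 CPM) were also highest in KO2. PCDHB10 and PCDHB13 had their highest means in KO1, with overlapping clones. PCDHB4 was highest in WT at 0.267 CPM and lowest in KO2 at 0.0127 CPM. IL1R1, the signalling receptor of interleukin-1, was at 0.134, 0.195 and 0.143 CPM in WT, 0.232, 0.162 and 0.126 CPM in KO1 and 2.02, 2.24 and 1.77 CPM in KO2. Its co-receptor IL1RAP was counted throughout, at 28.7 ± 0.862, 32.2 ± 0.0713 and 26.4 ± 0.830 CPM. Another relative, IL1RL1, was highest in WT, at 7.78 ± 0.0731, 1.57 ± 0.0452 and 1.98 ± 0.388 CPM in WT, KO1 and KO2. The noncoding gene LINC01833 was at 0.169 ± 0.0917, 0.215 ± 0.0677 and 2.95 ± 0.220 CPM.

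KO1 was the only active group of 6 members. PLCB4, a phospholipase C that acts below G protein-coupled receptors, was at 0.123, 0.0973 and 0.239 CPM in WT, 4.73, 5.50 and 4.70 CPM in KO1 and 0.324, 0.0914 and 0.539 CPM in KO2. WT and KO2 overlapped. Of its relatives PLCB3 was at 96.6 ± 6.73, 92.0 ± 10.5 and 82.6 ± 6.42 CPM, and PLCB1 and PLCB2 were under 0.25 CPM in every group. INAVA, a regulator of innate immune signalling and of epithelial junctions, was at 1.03 ± 0.0851 CPM in WT, 3.91 ± 0.315 in KO1 and 0.188 ± 0.0348 in KO2. SETBP1, whose protein binds the histone chaperone-like protein SET, was at 1.92 ± 0.0371, 2.19 ± 0.233 and 0.173 ± 0.123 CPM, so WT lay close under the limit. The noncoding genes AC015922.3 (0.889, 2.12 and 0.0842 CPM in WT, KO1 and KO2) and LINC00470 (0.435, 2.83 and 0.154 CPM) had the same order. AL353740.1 had 566 counts in KO1 and 0 in KO2, which makes KO1 at least 140-fold higher, and was at 0.0442 CPM in WT. LINC00470 was the only member that overlaps another gene above 0.2 CPM, AP005119.2. Both lie on the minus strand, so counting by strand would not by itself separate them. AP005119.2 was at 0.0964, 0.596 and 0.0349 CPM in WT, KO1 and KO2, the same order as LINC00470.

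**Figure D2:**
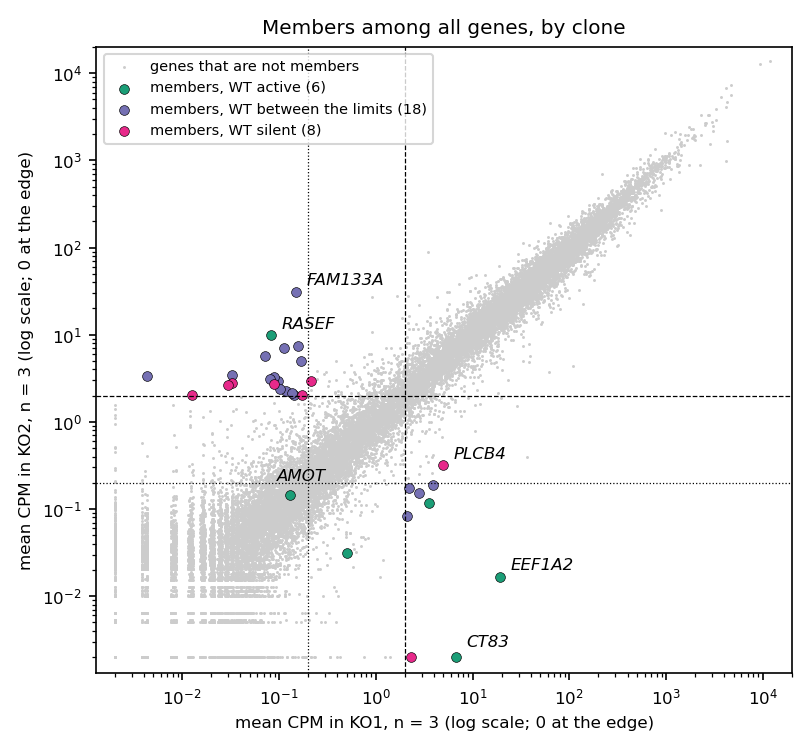
Mean CPM in KO1 against mean CPM in KO2, both on log axes with 0 at the edge (3 libraries each), for genes with at least 0.02 CPM in a group (grey) and the 32 members (coloured by the state of WT), with dotted lines at 0.2 CPM and dashed lines at 2 CPM. Most members lie far from the diagonal in the upper left corner, while AMOT lies on it because both clones are silent.

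WT was the middle group for most members. Its mean lay between those of the clones for 25 of the 32, with KO2 the highest in 19 and KO1 in 6, and in 22 of the 25 the WT libraries overlapped neither clone. The rule itself chose genes with a silent and an active group far apart, and no share over all genes was taken beside these counts. They therefore describe the chosen members only. WT stood at a median of 15.4% of the way from the lower to the higher clone on the CPM scale, with a range of 0.829% (PCDHB16) to 86.6% (SETBP1). WT was the highest group for 4 members and the lowest for 3.

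The levels were low on both sides. In the silent groups 13 of 117 library values were 0 counts and the highest count in any library was 23. In their highest group 22 members were under 4 CPM. Per kb of exon the median member reached 0.639 CPM in its highest group against 6.95 for all active genes, so the typical member was weakly expressed even where active. All 32 passed the filter on low counts, for which their active group sufficed. Members just inside the silent limit were COBL (0.170 CPM), SETBP1 (0.173) and INAVA (0.188), and ELMO1 (0.201), SERPIND1 (0.202) and the cancer/testis antigen gene MAGEA11 (0.208) lay just outside it. Just inside the active limit were TSTD1 (2.002 CPM), IL1R1 (2.012) and ZNF501 (2.024), with FMOD (1.92), AC099066.2 (1.92) and DTX3 (1.88) just outside. Under leave-one-out, the rule found 32 to 34 genes, and without KO2 replicate 2 it lost IL1R1, INAVA and SLC30A3.

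By type 27 members were protein coding, 4 were lincRNA genes and 1 was a transcribed unprocessed pseudogene. The 27 make up 84.4% of the members, against 91.8% of the active genes, and the lincRNA genes 12.5% against 1.89%. The members lay on 14 chromosomes, with 5 on chromosome 2, 4 on chromosome 19 and 3 on each of chromosomes 1, 3 and X. Chromosome 2 held 15.6% of the members and 7.04% of the active genes, chromosome 19 12.5% and 6.63%, the X chromosome 9.38% and 3.34%, chromosome 18 6.25% and 1.52%, and chromosome 1 9.38% and 10.1%. No test was made of these shares.

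The genes beside the members were not used by the rule and could be tested. For each member that was silent in 1 group of a comparison and active in the other, the nearest tested gene on each side that does not overlap the member, is no member itself and lies within 100 kb was taken. Between KO1 and KO2 there were 27 such neighbours of 19 members, and 15 of them changed in the direction of the member in edgeR's quasi-likelihood test at an adjusted p under 0.05, while 3 changed the other way. Beside members higher in KO2, 13 of 22 neighbours were higher in KO2, or 59.1%, where 24.9% of all tested genes were. Beside members lower in KO2, 2 of 5 were lower, where 23.9% of all tested genes were. The median log2 difference of the 27 neighbours was 0.67 towards the member.

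Between WT and KO2 there were 10 neighbours of 7 members, and 7 changed with the member and 1 against it. Of these, 4 of 6 rose beside members that were higher in KO2 and 3 of 4 fell beside members that were lower; over all tested genes 24.7% rose and 24.7% fell. Both comparisons use the KO2 libraries, so they are not separate evidence. Between WT and KO1, 4 members (RASEF, AMOT, PLCB4 and AL353740.1) went from silent to active or back, and none had a tested neighbour within 100 kb. Several neighbours carry the same symbol stem as the member, such as PCDHB9 or ZNF737, and may share reads with it. Without these, 10 of 20 neighbours changed with the member between the clones and 5 of 7 between WT and KO2.

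Beside CT83 lies SLC6A14, an amino acid transporter gene whose end is 0.224 kb from the end of CT83 on the other strand. It was at 0.854, 0.859 and 0.716 CPM in WT and 1.13, 1.29 and 1.34 CPM in KO1, and no read of it was counted in KO2. Against a floor of 3 counts over the group, KO2 was at least 49.3-fold lower than WT (adjusted p = 5.4e-08) and at least 76.0-fold lower than KO1 (adjusted p = 7.8e-09). Thus neither of these adjacent genes was detected in KO2. The 20 nearest expressed genes around CT83 had a median log2 difference of -0.73 for KO2 minus WT and -0.92 for KO2 minus KO1, the lowest of the 32 surroundings; whether the number of copies of this region differs was not tested.

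FAM133A and NAP1L3, a gene of the nucleosome assembly protein family, stand head to head with 0.445 kb between their starts. NAP1L3 was at 5.42, 4.64 and 5.25 CPM in WT, 0.361, 0.325 and 0.241 CPM in KO1 and 3.47, 3.96 and 3.79 CPM in KO2. It was higher in KO2 than in KO1 by 3.59 ± 0.16 on the log2 scale (adjusted p = 6.5e-11), so both genes were low in KO1. They differed in WT, where NAP1L3 was above its KO2 level and FAM133A was at 1.2% of the way from KO1 to KO2. The head-to-head pair AC015922.3 and AC015922.2, 0.811 kb apart, was lowest in KO2 for both genes; AC015922.2 was at 0.453 CPM in WT, 0.832 in KO1 and 0.0459 in KO2 (log2 difference between the clones -4.18 ± 0.42, adjusted p = 6.2e-07).

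Other neighbours moved less than the member. ZNF347 lies 0.138 kb from ZNF665 and was at 15.6 ± 0.820 CPM in WT, 13.6 ± 0.585 in KO1 and 35.1 ± 2.20 in KO2, 1.36 ± 0.07 higher in KO2 than in KO1 on the log2 scale (adjusted p = 2.2e-10). ZNF737, next to ZNF626, was 2.84 ± 0.12 higher (adjusted p = 5.2e-11). On both sides of C2CD6 the genes STRADB, a pseudokinase gene, and TMEM237, a gene of the ciliary transition zone, were higher in KO2 by 1.12 ± 0.06 and 0.53 ± 0.05, and so was SELENON, a selenoprotein gene beside MAN1C1, by 0.67 ± 0.07. SIX3, a homeobox gene 2.70 kb from LINC01833, was at 0.0413 CPM in WT and 0.319 CPM in KO2 (3.05 ± 0.77, adjusted p = 0.0045). Its WT libraries were at 0.0103, 0.113 and 0 CPM, with replicates 1 and 3 below the level of 3 counts, so the size of this change is uncertain. EHD3 beside GALNT14 went with the member against WT and against it between the clones: it was 0.66 ± 0.21 higher in KO2 than in WT (adjusted p = 0.018, and 0.051 to 0.062 without the filter on low counts, WT replicate 2 or KO2 replicate 3) and 1.62 ± 0.18 lower in KO2 than in KO1. Between the clones ZNF502 and KIAA1143 on either side of ZNF501 were also lower in KO2, by 0.38 ± 0.14 and 0.20 ± 0.06. PCDHB7, called higher in KO2 than in KO1 by 1.15 ± 0.43 (adjusted p = 0.037), lost the call with DESeq2 (adjusted p = 0.065), without the filter on low counts (0.070) and when any of 5 of the 6 clone libraries was left out.

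Wider surroundings of the members were also compared between the clones. For each member the median change of the 20 nearest genes whose log2 CPM averaged 2 or more was taken. Of the 22 members higher in KO2 than in KO1, 14 lay among genes with a median above 0. The count was 13 of 20 without AMOT, whose clones overlap, and with ZNF626 and ZNF826P, which share the same 20 genes, counted once. Of the 10 that were lower, 7 lay among genes with a median below 0. The median over all tested genes was 0.0075, and 50.8% of them lay above 0. The share of all such surroundings with a median above 0 was not taken, so these counts describe the members only. The surroundings of COBL, C2CD6 and ZNF716 were higher in KO2 by 0.55, 0.55 and 0.52 on the log2 scale, and those of SETBP1 lower by a median difference of -0.70. IL1R1 stood against its surroundings, which had a median of -0.48, as did AARD with -0.37. For EEF1A2 the median was -0.20. The part of these surroundings in the members' levels was not tested.

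Among the other cancer/testis antigen genes, 28 of 112 were expressed enough to be tested. In KO1, 6 rose and 5 fell against WT, or 21.4% and 17.9%, where 18% and 16.8% of all tested genes did. In KO2, 5 rose and 7 fell, or 17.9% and 25%, against 24.7% each way, so neither clone stood apart from the background; the medians were 0.14 and 0.10, against -0.0049 and -0.0077 over all genes. Without KO1 replicate 3 the number called in KO1 was 7 in place of 11, and the share of all tested genes called without it is not given here. SSX1 fell in both clones, to 0.211 ± 0.0869 CPM in KO1 and 0.201 ± 0.0540 CPM in KO2 against 1.05 ± 0.0556 CPM in WT (log2 changes -2.31 ± 0.29 and -2.35 ± 0.31, adjusted p = 2.2e-05 and 1.2e-05). MAGEB16 was at 0.502 ± 0.0489 CPM in WT and 0.0437 ± 0.0318 CPM in KO1, and no KO2 library held a read of it. MAGEA11, named for lying just outside the silent limit, was at 0.208 CPM in WT, 0.388 in KO1 and 4.99 in KO2. SPANXB1 rose in both, from 355 ± 20.6 to 494 ± 31.9 and 494 ± 16.5 CPM. CEP55, which acts in the last step of cell division and is on antigen lists too, fell in KO1 by 0.33 on the log2 scale and rose by 0.48 in KO2.

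Genes of the silencing machinery were examined in 4 lists, of DNA methylation, Polycomb, H3K9 methylation with the HUSH complex, and histone deacetylase complexes. Of the 120 tested, 22 rose and 26 fell in KO1, or 18.3% and 21.7%, beside 18% and 16.8% of all genes. In KO2, 27 rose and 46 fell, or 22.5% and 38.3%, beside 24.7% each way; the medians were -0.03 and -0.06 on the log2 scale. The number called in KO1 dropped from 48 to 31 without WT replicate 2 and to 29 without KO1 replicate 3. The share of all tested genes called without these libraries is not given here, so the drop is not particular to this list. By list, 16 of 39 Polycomb genes, 11 of 24 DNA methylation genes, 10 of 28 deacetylase genes and 9 of 29 H3K9 and HUSH genes fell in KO2, where 6, 8, 6 and 7 rose. DNMT1, which copies methylation to the new strand after replication, was at 527 ± 20.3 CPM in WT and fell to 409.9 ± 20.8 CPM in KO1 and 306 ± 11.8 CPM in KO2 (log2 changes -0.36 ± 0.05 and -0.79 ± 0.05, adjusted p = 3.5e-05 and 3.8e-09). The de novo methyltransferase DNMT3A rose by 0.52 ± 0.09 and 0.91 ± 0.09, and DNMT3B, the other de novo enzyme, was at -0.13 ± 0.06 in KO1 (adjusted p = 0.11) and fell by 0.77 ± 0.06 in KO2.

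EZH2, the methyltransferase of Polycomb complex 2, fell by 0.16 ± 0.04 in KO1 and by 0.37 ± 0.04 in KO2; the call in KO1 was lost without WT replicate 1 (adjusted p = 0.087) and without KO1 replicate 3 (adjusted p = 0.067). AHCY, which clears the product that inhibits methyltransferases, fell by 0.44 ± 0.05 and 0.50 ± 0.05. The clones went opposite ways for ZBTB33, which encodes the methyl-CpG reader Kaiso (0.38 ± 0.05 in KO1 and -0.98 ± 0.05 in KO2), and for PHF19, a Polycomb-like subunit (-0.39 ± 0.05 and 0.46 ± 0.05). SETDB1, TET1 and TET2 were called in neither clone, with log2 changes between -0.09 and 0.13. TET3 was at -0.15 ± 0.05 in KO2 (adjusted p = 0.024), a call that upper-quartile scaling ended (adjusted p = 0.076), as did leaving out WT replicate 2 or 3 or KO2 replicate 2 or 3 (adjusted p = 0.053 to 0.070).

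Imprinted genes can be read from 1 parental copy, and which copies were read in these cells was not measured. In KO1, 7 of the 25 tested genes of the imprinted list rose and 3 fell (28% and 12%, beside 18% and 16.8% of all genes). In KO2, 11 rose and 6 fell (44% and 24%, beside 24.7% each way). ERLIN2 rose by 0.23 ± 0.05 and 0.75 ± 0.05, SGCE by 0.29 ± 0.05 and 0.24 ± 0.05, and IGF2R by 0.25 ± 0.04 and 0.17 ± 0.04. GNAS rose by 0.15 ± 0.04 in KO1 and fell by 0.35 ± 0.04 in KO2. The comparisons of KO1 and of KO2 with WT share the WT libraries, for this list as for the others.

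Markers of other cell types were low. The 11 leukocyte markers summed to 2.08 to 3.15 CPM per library with none active, and HBB and HBA2 of the erythroid markers were at 0 in all libraries. Endothelial markers summed to 14.7 to 15.9 CPM in WT, 21.9 to 22.2 in KO1 and 18.9 to 21.8 in KO2, nearly all of it KDR. The neuronal markers, of interest beside EEF1A2, SLC30A3 and PCDHB16, summed to 15.8 to 16.9 CPM in WT, 10.7 to 11.7 in KO1 and 17.5 to 19.2 in KO2, with most of the counts from SYT1 (13.5, 9.05 and 13 CPM in the 3 groups) and STMN2 at 0 throughout. Of these markers MAP2, at 1.20, 0.678 and 3.29 CPM in WT, KO1 and KO2, and RBFOX3, at 0.0722, 0.0215 and 0.546 CPM, were lowest in KO1 and highest in KO2, the order of the 14 genes. Others did not follow it: SNAP25, at 0.353, 0.335 and 0.189 CPM, was lowest in KO2. TUBB3, at 1.11, 1.15 and 1.37 CPM, was lowest in WT, and SYN1, NEFL, NEFM and DCX were under 0.05 CPM in every group. The hepatocyte markers summed to 5.41 to 5.93 CPM in WT, 8.80 to 10.8 in KO1 and 16.5 to 18.4 in KO2, where SERPINA1 made up most of the sum and ALB was under 0.05 CPM. No member is in these lists, and their part in the members' levels was not tested.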

How the data were processed

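The authors deposited 1 table per library with raw read counts per gene symbol, and those counts were used as deposited. The submitters' processing notes name the trimmer Trim Galore and the aligner HISAT2, and list hg38 beside the mouse builds GRCm38 and mm10 without saying which was used for what. The sources used here do not give tool versions, the counter, its annotation, its strand setting or its use of reads that map to several places. Per the labels' protocols RNA came from an RNeasy kit and libraries from an Illumina TruSeq kit. CPM, a count per 1000000 counts of the library, was averaged over the 3 libraries of each group. Genes were tested with edgeR 4.0.16 in R 4.3.3: filterByExpr (17759 genes), TMM factors, a robust quasi-likelihood fit with 1 mean per group over all 9 libraries, and Benjamini-Hochberg adjustment over all tested genes at 0.05. Errors of log2 changes are standard errors, and the p-values rest on library-to-library spread that could be technical alone.

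Types and positions came from GENCODE 29 (GRCh38), which held 1 gene for each of 55780 symbols, and promoters from RefSeq. Intervals and the floor of 3 counts cover counting error only. The fit was tested on simulated counts. Members named are all 32; list genes were named by a rule on the smallest p in both clones plus a fixed set of enzymes, and relatives after values were seen. The members and the lists were chosen with earlier results of these data known. Alternatives covered the limits, scaling, filter, DESeq2 1.42.0, window, replicate block and single libraries. Within groups, libraries differed by more than counting noise (chi-square over its degrees of freedom 5.85 to 28.7). Results for some genes are not reported here.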

Additional observations from a re-analysis of the deposited data

Results flagged for a closer look

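For 22 members all 3 libraries of 1 clone lay above WT and all 3 of the other below it, so the clones lay on opposite sides of WT; this difference was not tested, because the rule had chosen the genes by it. The share of all genes with such a separation was not taken. The values are KO2 minus KO1 in mean CPM. It was positive for 16 of them: 31.1 for FAM133A, 9.86 for RASEF, 7.26 for AARD, 7.002 for PPP1R14C, 5.64 for CA2 and 4.88 for COBL. For the zinc finger genes it was 3.40 (ZNF716), 3.33 (ZNF826P), 3.21 (ZNF626), 3.02 (ZNF665), 2.31 (ZNF681) and 2.01 (ZNF501). For MAN1C1, C2CD6, WNT5A and SLC30A3 it was 2.81, 2.14, 2.00 and 1.88. It was negative for 6 of them: -6.77 for CT83, -3.72 for INAVA, -2.68 for LINC00470, -2.30 for AL353740.1, -2.03 for AC015922.3 and -2.02 for SETBP1. AL353740.1 had only 2, 2 and 5 counts in the WT libraries against 0 in KO2, so 2 of its 3 WT libraries held fewer counts than the floor of 3.

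Of the 19 named list genes, which were partly chosen by small p-values, 11 differed between the clones in edgeR's test of KO2 minus KO1, as did 48.9% of all tested genes. KO2 was higher on the log2 scale by 0.85 for PHF19 (adjusted p = 4.6e-09), 0.81 for CEP55 (8.5e-10), 0.52 for ERLIN2 (1.9e-07) and 0.40 for DNMT3A (0.0010). The difference was -1.36 for ZBTB33 (1.9e-11), -0.63 for DNMT3B (6.1e-07), -0.51 for GNAS (4.1e-08), -0.43 for DNMT1 (2.1e-06), -0.20 for EZH2 (0.00094) and -0.15 for TET3 (0.026). For MAGEB16 it was -4.74 (0.013), a value that depends on the prior count because KO2 had no reads.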

How the results depend on the processing

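The number of members follows from its limits: 16 genes met a silent limit of 0.1 CPM, 78 one of 0.5, 90 an active limit of 1 and 10 one of 4, and 16 met the rule in every library. CPM from TMM library sizes gave the same 32 genes, medians in place of means gave 36 (30 shared), protein-coding genes alone gave 27, and leaving out each library gave 32 to 34 (29 to 32 shared). With a window of 250 kb, neighbours that changed with the member numbered 24 of 39 between the clones, 12 of 16 for KO2 against WT and 1 of 2 for KO1 against WT. Leaving out single libraries gave 14 to 18, 6 to 7 and 0. The called antigen genes in KO1 ranged from 7 to 11 and the called silencing genes from 29 to 53. No share over all tested genes is given for these settings. Replicate numbers did not pair the libraries: deviations of libraries with the same number correlated at -0.53 to 0.48, and for 3 of 9 the best match in another group had its own number. With the replicate block the neighbour counts were again 15 and 7, and of the neighbours called without it 14 of 15 and 7 of 7 were called (PCDHB7 was not, adjusted p = 0.054); called silencing genes were 43 in KO1. Of the values for named genes under each alternative, 902 kept direction and call, 18 lost the call and 0 reversed. At up to 23 counts per library of a silent group, depth limits how far below 0.2 CPM a member lies.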
